A study of Oryza sativa Indica Group with 45 samples.

Results

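Rice genes named RH followed by a number carry the symbol used for DEAD-box RNA helicases, and their mRNA was followed in leaves and roots of a hybrid and of its parents. A gene was taken when its RefSeq symbol or a synonym, without the Os prefix, was RH with a number. The rule found 7 genes, and 4 of them have a probe set of their own on the array, out of 17905 genes that do. These are RH34 (LOC4333273, chromosome 3), RH10 (LOC4333678, chromosome 3, also called TOGR1), RH17 (LOC4337589, chromosome 5) and LOC4324018 (chromosome 1, synonym RH2). No probe set is paired with RH3 (LOC4324051), RH1 (LOC4338570) or EIF4A3A, a second gene with the synonym RH2, and these 3 genes were not analysed here. Where several probe sets are paired with a gene, the one with the highest average over all arrays stands for it. These are Os.57569.1.S1_at for RH34, Os.5421.1.S1_at for RH10, Os.19569.2.S1_at for RH17 and Os.45928.1.S1_at for LOC4324018. All 4 passed the level filter, and of the 8 probe sets paired with these genes 7 did.

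The genes that carry the name differ in size. RH34, RH10, RH17 and EIF4A3A span 4511, 4747, 3579 and 3528 bp in the RefSeq annotation of the ASM3414082v1 assembly. LOC4324018, RH3 and RH1 span 761, 571 and 878 bp, and LOC4324018 and RH3 are direct neighbours with 0 protein-coding genes between them. No file used here describes the proteins of these short genes, so LOC4324018 is given below as a short RH2-named gene and not as a helicase.

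DEAD-box proteins bind RNA and use ATP to open short duplexes or to clamp onto a strand, and they act at most steps in the life of an RNA. RH34 encodes eIF4A-III, the clamp at the core of the exon junction complex, which is left on spliced mRNA near the junction and is held closed by the MAGO and Y14 proteins. RH10, as TOGR1, is a nucleolar helicase that keeps ribosomal RNA processing going in rice at high temperature. RH17 is a further member of the family whose role is not stated here.

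The plants were the indica hybrid MRP5401, set against its male parent PR319 (the R line, called R parent) and its female parent PMS80 (the B line, called B parent). Each genotype was sampled as leaves and roots of seedlings at 14 days (young leaf and young root), leaves and roots at 40 to 60 days (mature leaf and mature root) and flag leaves at 90 days. The labels give 3 biological replicates for each of these 15 groups, hence 45 Affymetrix Rice Genome Arrays of whole organs, and no treatment or transgene. All values below are log2 intensities, one unit being a doubling, and a mean under 5 is taken as near background. In whole organs, fewer cells of a type and less RNA per cell cannot be told apart.

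Leaf markers (8 photosynthesis genes) averaged between 13.67 and 14.80 in the 9 leaf groups and between 3.04 and 3.30 in mature roots, where 0 of 8 reached 5. In young roots they averaged 12.11 in the hybrid, 9.63 in the R parent and 10.22 in the B parent, with 8, 7 and 8 of 8 genes at 5 or more. Root markers (6 genes) averaged between 7.02 and 9.82 in the 6 root groups and between 3.74 and 5.02 in the leaf groups. In the hybrid, R parent and B parent, 4, 4 and 5 of 6 reached 5 in young roots and 4, 6 and 5 in mature roots. In mature leaves 2, 2 and 3 of 6 did, and 1 in each young leaf and flag leaf group. The root marker IRT1 was not higher in young root than in young leaf (young leaf minus young root 0.19). The young leaf arrays of the R parent stood apart. Their median intensities ran between 7.36 and 7.90, the hybridization spike-ins averaged 12.47 there, compared with 10.31 in hybrid and 11.24 in B parent young leaves, and their mean correlation within the group, 0.979, was the lowest of the 15 groups. The mature root arrays of the R parent had the lowest 3' index (the 3' minus 5' signal of 4 control genes), at 1.57 ± 0.06, where hybrid arrays had 2.51 ± 0.04 and B parent arrays 2.61 ± 0.21 (SD, n = 3 each). The estimates of hybrid minus B parent use none of these arrays, although their SE comes from the fit of all arrays. A fit without these 6 arrays was also made, in which organ and age differences come from the hybrid and the B parent alone. What else these features do to the results was not tested.

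The question of the design is how the hybrid compares with both parents at each stage. Set against the mid-parent (the average of the parents on the log2 scale), the hybrid differed in RH34 and RH17 in young leaf (2 of 4 genes, both higher), in LOC4324018 in young root and again in mature root (1 of 4 each, lower), and in LOC4324018 and RH10 in flag leaf (2 of 4, higher and lower). In mature leaf 0 of 4 were called by limma, and 0 had an unadjusted p under 0.05. Of the 24130 probe sets tested, 46.9% were called in young leaf, 20.3% in young root, 4.88% in mature leaf, 23.0% in mature root and 10.1% in flag leaf. With 4 genes, counts of 1 or 2 are read as those genes' own values and not as a property of the family. Against the R parent, 2 of 4 genes were called in young leaf (RH34 and RH17), 1 in young root (LOC4324018), 0 in mature leaf, and LOC4324018 and RH10 in both mature root and flag leaf. The shares of all probe sets called were 51.4%, 20.7%, 6.84%, 39.8% and 10.7%. Against the B parent, RH10 was called in young leaf and LOC4324018 and RH10 in mature root and flag leaf, with 0 of 4 called by limma in young root and mature leaf. Of those zeros, mature leaf against the R parent had 0 of 4 with an unadjusted p under 0.05, young root against the B parent 1 (LOC4324018) and mature leaf against the B parent 2 (RH34 and RH10). Against the B parent the shares were 36.4%, 25.7%, 10.7%, 34.3% and 11.9%. Both parents were passed in the same direction by LOC4324018 in mature root (lower) and by LOC4324018 (higher) and RH10 (lower) in flag leaf. Of all probe sets 1.63% were lower in this way in mature root, and 2.17% higher and 0.559% lower in flag leaf. In young leaf, young root and mature leaf 0 of 4 passed both, where 19.9%, 7.14% and 0.986% of all probe sets did. These counts use 1 probe set per gene, and another probe set of RH10, given below, exceeded both parents in young leaf. The median of all tested probe sets was 0.17 for hybrid minus mid-parent in young leaf and 0.03 after quantile normalization. The plot of genotype differences gives the values of all 4 genes.

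**Figure D1:**
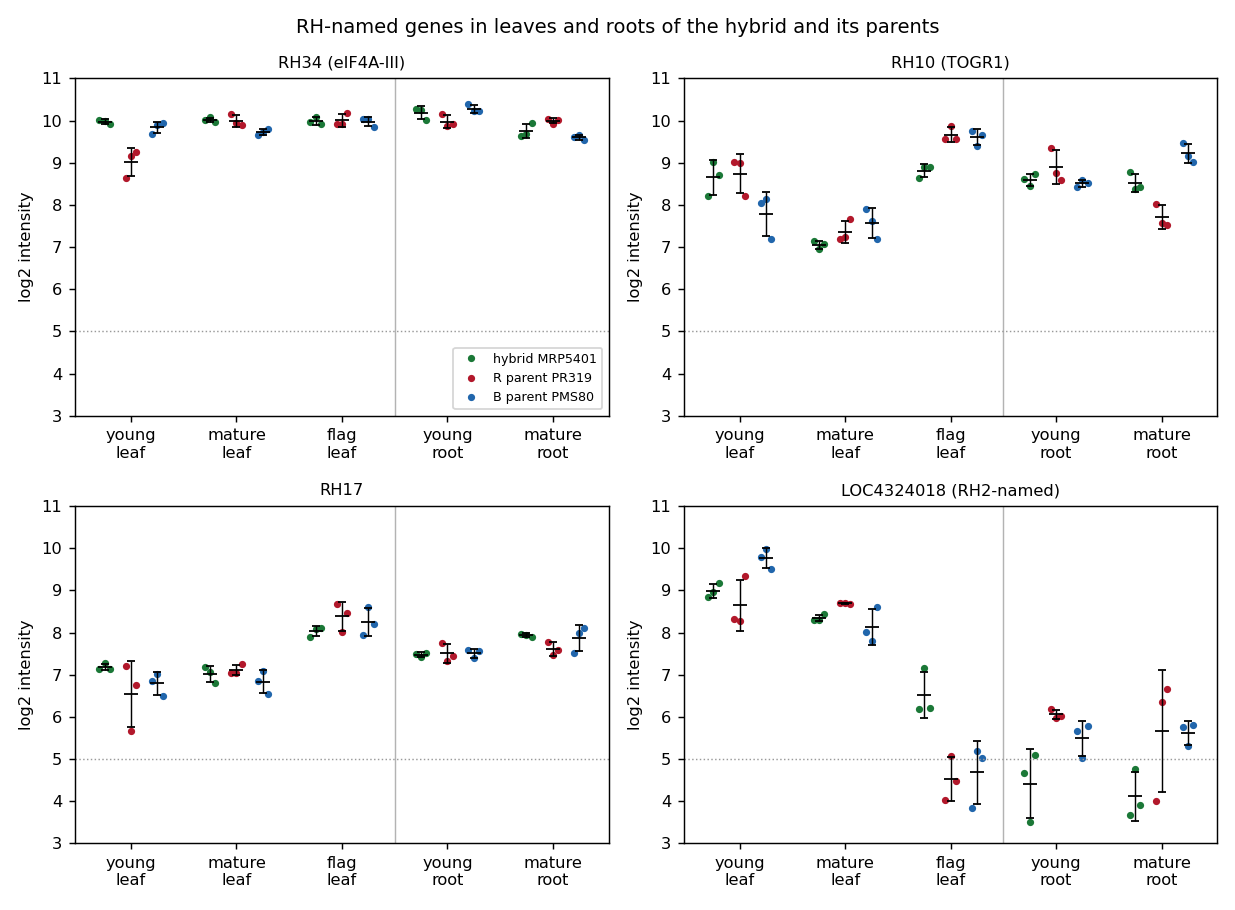
Log2 intensity (y axis) of 4 RH-named genes in the 5 organs and stages (x axis), leaves left of the grey line and roots right of it. Points are single arrays of the hybrid (green), R parent (red) and B parent (blue), bars are mean ± SD over 3 arrays, and the dotted line marks 5, the level taken as near background. RH34 varied least, with group means between 9.01 and 10.28, and LOC4324018 most, between 4.11 and 9.76.

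RH34 (eIF4A-III) varied least of the 4 genes across organs, stages and genotypes. Its 15 group means lay between 9.01 and 10.28 with an SD of 0.30, the smallest of the 4 genes. In order of level, 12 of the 14 pairs of groups next to each other overlapped in their arrays. That count was 11 for LOC4324018, which varied most, so it does not tell a level gene from a variable one. Young roots of the hybrid (10.19 ± 0.15) and of the B parent (10.28 ± 0.09) were at the top and did not separate from each other. Young leaves of the R parent (9.01 ± 0.34) and mature roots of the B parent (9.60 ± 0.06) were at the bottom (SD, n = 3 each). The former stood clear of the next group above. The highest array of the latter, 9.66, lay just under the lowest of B parent mature leaves, 9.67. It lay above the lowest array of hybrid mature roots, 9.64, so that mature roots of the hybrid and the B parent overlapped.

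The genotypes differed most in young leaf. There RH34 read 10.01, 10.00 and 9.91 in the hybrid, against 8.63, 9.15 and 9.26 in the R parent and 9.68, 9.89 and 9.94 in the B parent. The R parent lay below every array of the hybrid and the B parent, and the hybrid and the B parent overlapped. The hybrid exceeded the R parent by 0.96 ± 0.13 (SE, limma adjusted p = 2.06e-07) and differed from the B parent by 0.14 ± 0.13 (adjusted p = 0.476). Hybrid minus mid-parent was 0.55 ± 0.11 (adjusted p = 0.000169), and with the spike-in signal as a covariate it was 0.33 (adjusted p = 0.20). R minus B was -0.82 ± 0.13 (adjusted p = 3.38e-06). These R parent arrays are the ones that stood apart in intensity and spike-ins, and the estimate of hybrid minus B parent does not use them. The difference between the hybrid and the R parent was called with each array left out in turn, at 0.77 to 1.08.

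Outside young leaf, RH34 of the hybrid passed no test against the mid-parent, and its differences lay between -0.05 and 0.16. Hybrid minus mid-parent was larger in young leaf than in young root by 0.49 ± 0.16 (interaction contrast, adjusted p = 0.0146), with 41.0% of all probe sets called in that contrast. The median of all tested probe sets was itself 0.26 there, and 0.08 after quantile normalization. The call of RH34 was lost after quantile normalization (0.25, adjusted p = 0.20), in a model that adds the spike-in signal (0.32, adjusted p = 0.23), in a fit of those stages alone (adjusted p = 0.057) and without replicate 3 of the hybrid in young root (adjusted p = 0.0644). In mature root RH34 read 10.04, 9.92 and 10.02 in the R parent and 9.60, 9.66 and 9.54 in the B parent, which did not overlap. The difference was 0.40 ± 0.13 (adjusted p = 0.0106), and it was no longer called after quantile normalization (0.27, adjusted p = 0.057), when the model held the spike-in signal (0.32, adjusted p = 0.054) or when it held the 3' index (0.49, adjusted p = 0.083).

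Averaged over the 3 genotypes, RH34 was lower in young leaf than in young root, at a difference of -0.54 ± 0.08 (adjusted p = 7.29e-08), and higher in mature than in young leaf by 0.31 ± 0.08 (adjusted p = 0.000589). The shares of probe sets called in these comparisons were 81.3% and 65.7%. From the hybrid and the B parent alone, without the R parent arrays that stood apart, these values were -0.33 (adjusted p = 0.000603) and -0.026 (adjusted p = 0.850). The median of all tested probe sets in young leaf minus young root was itself -0.41, and -0.10 after quantile normalization. In mature root RH34 fell by 0.37 ± 0.08 relative to young root (adjusted p = 5.55e-05, 77.1% of probe sets called), and from the hybrid and the B parent alone it fell by 0.56 (adjusted p = 4.58e-07). Over all genotypes it passed neither in mature leaf minus mature root (0.14 ± 0.08, adjusted p = 0.0971, 86.4% of probe sets called) nor in flag leaf minus mature leaf (0.07 ± 0.08, adjusted p = 0.450, 64.2% called). Mature leaf minus mature root from the hybrid and the B parent alone was 0.20 (adjusted p = 0.0235). Since EIF4A3A, named as a second eIF4A-III gene, has no paired probe set, a share of its signal in the RH34 probe set is uncertain.

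Of the partners of eIF4A-III at the exon junction, MAGO2 was about as level as RH34, while MAGO1 and Y14b varied more. Of the 4 genes named MAGO or Y14, 3 are on the array, namely MAGO1, MAGO2 and Y14b, and all 3 passed the level filter. Group means lay between 10.23 and 11.19 for MAGO2, between 7.65 and 10.28 for MAGO1 and between 3.10 and 8.60 for Y14b. Y14b read 8.53, 8.69 and 8.59 in young leaf of the hybrid, against 3.48, 2.93 and 3.32 in its young root, and both parents showed the same separation. Young leaf minus young root was at least 3.17 for Y14b with the young root means, all near background, set to 5 (fitted 4.90 ± 0.11, adjusted p = 3.27e-29), while it was -1.48 ± 0.13 for MAGO1 (adjusted p = 1.02e-12) and -0.25 ± 0.07 for MAGO2 (adjusted p = 0.000978). From young to mature leaf Y14b fell by 2.54 ± 0.11 (adjusted p = 3.84e-20), and in flag leaf it exceeded mature leaf by 2.05 ± 0.11 (adjusted p = 1.61e-17).

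Against the mid-parent, MAGO1 and MAGO2 were lower in mature root (2 of 3 genes, beside 23.0% of all probe sets called), where RH34 was not called (-0.05 ± 0.11, adjusted p = 0.833). MAGO1 read 8.63, 8.39 and 8.90 in mature root of the hybrid, against 9.39, 9.90 and 9.06 in the R parent and 9.65, 9.21 and 9.84 in the B parent. The 3 hybrid arrays lay below all 6 parent arrays, and hybrid minus mid-parent was -0.87 ± 0.19 (adjusted p = 0.000936). MAGO2 was at -0.35 ± 0.10 (adjusted p = 0.0112) and the median of the 3 genes was -0.35 beside 0.02 over all tested probe sets. Y14b had hybrid and R parent means under 5 there, its fitted 0.46 (adjusted p = 0.0444) turning to -0.08 with means under 5 set to 5, and it is not counted as a change. In young leaf Y14b was called, at 0.65 ± 0.17 (adjusted p = 0.00174), and MAGO1 and MAGO2 were not. No test compared these genes' differences with those of RH34. The MAGO1 probe set is of the x_at type, which can bind transcripts of related genes. A second MAGO1 probe set, not of that type and averaging 6.51 over all arrays, passed the level filter and was not compared.

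**Figure D2:**
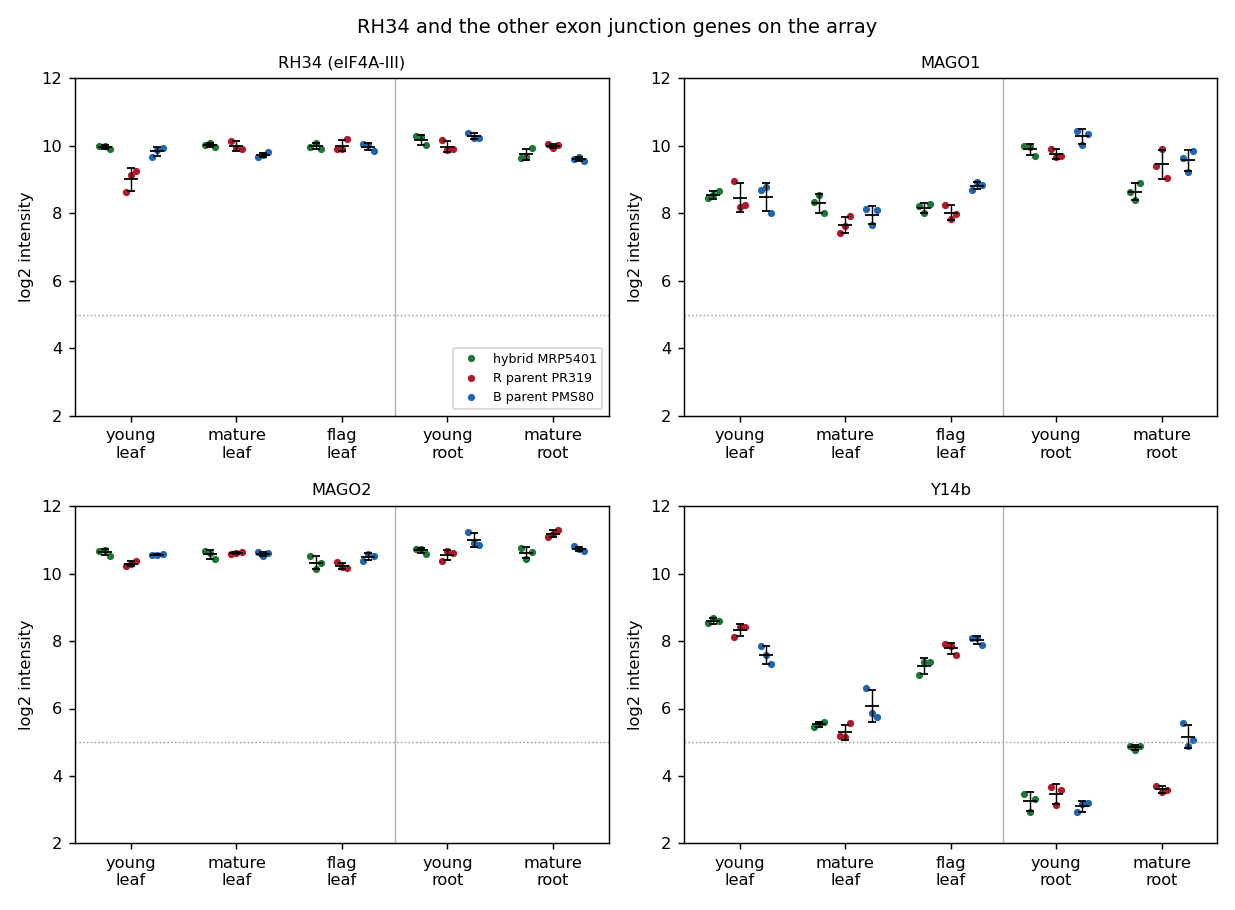
Log2 intensity (y axis) of RH34 and of the exon junction genes MAGO1, MAGO2 and Y14b in the 5 organs and stages (x axis). Points are arrays of the hybrid (green), R parent (red) and B parent (blue), bars are mean ± SD over 3 arrays, and the dotted line marks 5. RH34 and MAGO2 stay within narrow bands, while Y14b is near 8 in young leaf and near 3 in young root.

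RH10 (TOGR1) is read by 3 probe sets, here called A (Os.5421.1.S1_at), B (Os.5421.1.S1_s_at) and C (Os.53765.1.S1_at), and their results differed enough that each is given. Over 45 arrays, A and B correlated at r = 0.71, C and B at 0.52, and C and A at 0.23. These are descriptions over arrays that share the same RNA extracts. The stretch of the transcript that each probe set covers was not used here.

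The 3 probe sets moved together from mature to flag leaf. By probe set A, flag leaf read 8.63, 8.91 and 8.90 in the hybrid, 9.56, 9.87 and 9.57 in the R parent and 9.76, 9.40 and 9.66 in the B parent. In mature leaf the same probe set read 7.15, 6.95 and 7.07 in the hybrid, 7.18, 7.24 and 7.66 in the R parent and 7.91, 7.62 and 7.19 in the B parent. Every flag leaf array lay above every mature leaf array. Flag leaf minus mature leaf was 2.03 ± 0.14 (adjusted p = 5.02e-15) by this probe set, 1.34 ± 0.12 (adjusted p = 6.76e-12) by probe set B and 1.05 ± 0.15 (adjusted p = 9.33e-08) by probe set C. The call of probe set A was kept under all the processing alternatives tried and with each array left out. In this comparison 64.2% of all probe sets were called.

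In flag leaf the hybrid was below both parents by probe set A, its 3 arrays lying under all 6 parent arrays. Hybrid minus R parent was -0.85 ± 0.24 (adjusted p = 0.0160), hybrid minus B parent was -0.79 ± 0.24 (adjusted p = 0.0249), and hybrid minus mid-parent was -0.82 ± 0.21 (adjusted p = 0.00778). Of all tested probe sets, 0.559% lay below both parents in flag leaf and 2.17% above both. Probe set B gave -0.54 ± 0.18 against the mid-parent (adjusted p = 0.0513), and probe set C gave -0.14 ± 0.22 (adjusted p = 0.856). With the 3' index covariate the value of probe set A was -0.64 (adjusted p = 0.055), and without replicate 1 of the hybrid the adjusted p was 0.0846. The difference to the R parent lost its call without replicate 1 of the hybrid or replicate 2 of the R parent (adjusted p up to 0.0967). That to the B parent lost it without replicate 1 of the hybrid or replicate 1 or 3 of the B parent (up to 0.137), and with the 3' index covariate (-0.51, adjusted p = 0.265). The flag leaf arrays of the B parent had the highest 3' index of the 15 groups, at 2.89 ± 0.15. Those of the hybrid had 2.46 ± 0.09 and those of the R parent 2.58 ± 0.10 (SD, n = 3 each).

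In young leaf probe set C read 8.11, 7.91 and 7.50 in the hybrid, against 4.05, 5.45 and 5.26 in the R parent and 5.64, 6.30 and 6.01 in the B parent. The hybrid lay above all 6 parent arrays, and the R parent mean, 4.92, was near background. The hybrid exceeded the B parent by 1.86 ± 0.25 (adjusted p = 4.27e-07). Against the R parent the difference was at least 2.84 with the low mean set to 5 (fitted 2.92, adjusted p = 1.26e-11). Hybrid minus mid-parent was 2.39 ± 0.22 (adjusted p = 1.20e-10) and between 2.17 and 2.56 with single arrays left out.

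The other probe sets of RH10 gave smaller values in young leaf. Probe set A read 8.22, 9.03 and 8.72 in the hybrid, against 9.02, 8.99 and 8.20 in the R parent and 8.05, 8.13 and 7.19 in the B parent, so that the hybrid and the R parent overlapped. It put the hybrid above the B parent by 0.86 ± 0.24 (adjusted p = 0.00461, 0.118 in a fit of young leaf alone and up to 0.0780 without replicate 2 of the hybrid or replicate 3 of the B parent) and gave -0.08 ± 0.24 against the R parent (adjusted p = 0.829). Probe set B put the hybrid above the B parent by 0.58 ± 0.21 (adjusted p = 0.0274). Against the mid-parent neither passed, at 0.39 ± 0.21 (adjusted p = 0.126) and 0.41 ± 0.18 (adjusted p = 0.0603). When the spike-in signal was in the model, probe set A gave 1.42 against the mid-parent (adjusted p = 0.00021).

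All 3 probe sets placed hybrid minus mid-parent higher in young leaf than in mature leaf. The interaction contrast was 2.37 ± 0.31 (adjusted p = 4.92e-07) by probe set C, 0.80 ± 0.29 (adjusted p = 0.0308) by probe set A and 0.67 ± 0.26 (adjusted p = 0.0408) by probe set B. Of all probe sets 36.5% were called in this contrast, and the median of all tested probe sets was itself 0.24, and 0.04 after quantile normalization. The call of probe set A was lost after quantile normalization (0.42, adjusted p = 0.32) and with no level filter (adjusted p = 0.056). It was also lost with the mid-parent on the linear scale (0.73, adjusted p = 0.054), with array weights (0.60, adjusted p = 0.051) and in a fit of those stages alone (adjusted p = 0.11), and in 8 of 18 fits with an array left out. That of probe set B was lost in 9 of 18 such fits (adjusted p up to 0.161), after quantile normalization (0.24, adjusted p = 0.582), with no level filter (adjusted p = 0.0661) and in a fit of those stages alone (adjusted p = 0.166).

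**Figure D3:**
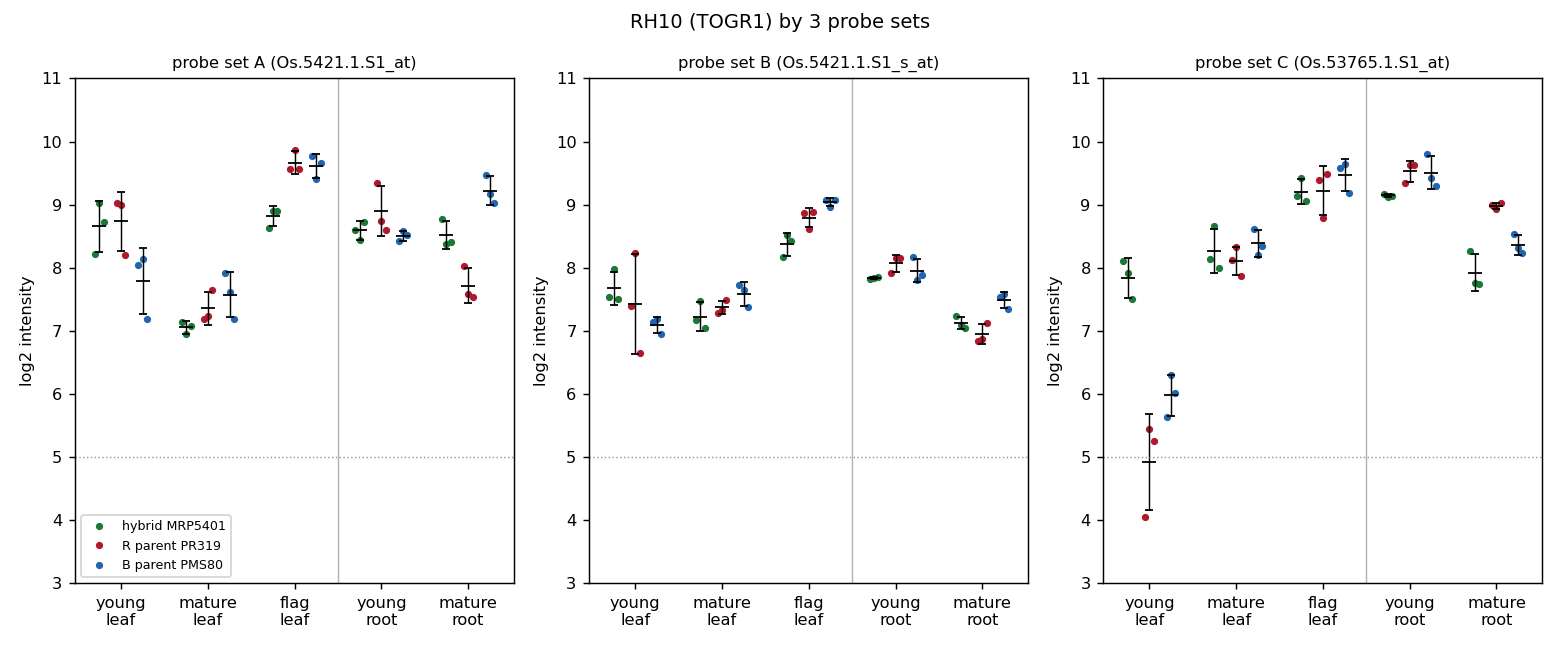
Log2 intensity (y axis) of RH10 by its 3 probe sets, one panel each, in the 5 organs and stages (x axis). Points are arrays of the hybrid (green), R parent (red) and B parent (blue), bars are mean ± SD over 3 arrays, and the dotted line marks 5. In young leaf probe set C sets the hybrid at 7.84 above the R parent at 4.92 and the B parent at 5.98, and in mature root it orders the parents opposite to probe set A.

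Between the parents, RH10 probe sets A and C gave opposite signs. In young leaf R minus B was 0.94 ± 0.24 by probe set A (adjusted p = 0.00137) and -1.06 ± 0.25 by probe set C (adjusted p = 0.000662), while probe set B gave 0.34 ± 0.21 with no call (adjusted p = 0.198). The value of probe set A was 0.12 once the model held the spike-in signal, in which these R parent arrays stood apart (adjusted p = 0.767), and it was not called in a fit of young leaf alone (adjusted p = 0.0726). In mature root probe set A read 8.77, 8.37 and 8.42 in the hybrid, 8.03, 7.58 and 7.53 in the R parent and 9.48, 9.17 and 9.03 in the B parent. There the hybrid lay between the parents, the 3 genotypes did not overlap, and R minus B was -1.51 ± 0.24 (adjusted p = 2.04e-06). The hybrid exceeded the R parent by 0.80 ± 0.24 (adjusted p = 0.00740), and hybrid minus B parent was -0.71 ± 0.24 (adjusted p = 0.0209, up to 0.107 with single arrays left out). The first of these was 0.16 once the model held the spike-in signal (adjusted p = 0.651), 0.17 with the 3' index (adjusted p = 0.807), 0.17 by probe set B (adjusted p = 0.564) and -1.06 by probe set C (adjusted p = 0.00102). Probe set C read 8.99, 8.93 and 9.02 in the R parent and 8.54, 8.31 and 8.23 in the B parent, and R minus B was 0.62 ± 0.25 (adjusted p = 0.0348). With single arrays left out, this value of probe set C was called in 1 of 6 fits (adjusted p up to 0.101). Probe set B had the sign of probe set A, between -0.63 and -0.49 in such fits, and was called in 2 of 6 (adjusted p up to 0.0841). Within single arrays, probe set C minus probe set A averaged -0.59 ± 0.08 in mature root of the hybrid, 1.27 ± 0.27 in that of the R parent and -0.86 ± 0.07 in that of the B parent (SD, n = 3 each). In young leaf the same quantity was -0.81 ± 0.62 for the hybrid, -3.82 ± 1.04 for the R parent and -1.81 ± 0.61 for the B parent. The R parent held the lowest of these 15 group values in young leaf, and in mature root its arrays overlapped those of hybrid mature leaf, 1.21 ± 0.44, as the 2 highest groups. With the 3' index as a covariate, R minus B in mature root was -0.81 (adjusted p = 0.0942) by probe set A and 0.49 (adjusted p = 0.405) by probe set C.

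The probe sets also split on age and organ. Mature minus young leaf was -1.06 ± 0.14 by probe set A (adjusted p = 2.65e-08), 2.01 ± 0.15 by probe set C (adjusted p = 2.63e-14) and -0.00 ± 0.12 by probe set B (adjusted p = 0.992). Young leaf minus young root was -3.15 ± 0.15 by probe set C (adjusted p = 2.99e-20) and -0.56 ± 0.12 by probe set B (adjusted p = 9.15e-05), and -0.27 ± 0.14 by probe set A (adjusted p = 0.0698). Mature leaf minus mature root was -1.16 ± 0.14 by probe set A (adjusted p = 1.95e-09). The other probe sets did not pass there, at -0.17 ± 0.15 and 0.21 ± 0.12. Young leaf minus young root was below 0 by all 3 probe sets, as was mature root minus young root (-0.18, -0.77 and -0.97 by A, B and C, of which B and C passed). The medians of all tested probe sets were also below 0 there, at -0.41 and -0.20, with 81.3% and 77.1% called. In mature minus young leaf and mature leaf minus mature root no direction held across the 3 probe sets.

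RH17 had its highest group means in flag leaf, where the hybrid arrays (7.90 to 8.11) overlapped those of hybrid mature root (7.90 to 7.98). Flag leaf was not tested against roots. By Os.19569.2.S1_at RH17 read 7.90, 8.08 and 8.11 in flag leaf of the hybrid, 8.68, 8.01 and 8.47 in the R parent and 7.94, 8.61 and 8.19 in the B parent. In mature leaf it read 7.19, 7.07 and 6.80 in the hybrid, 7.05, 7.03 and 7.25 in the R parent and 6.86, 7.09 and 6.55 in the B parent. All 9 flag leaf arrays lay above all 9 mature leaf arrays, while the genotypes overlapped within each stage. Flag leaf minus mature leaf was 1.23 ± 0.14 (adjusted p = 6.70e-10). RH10 rose too, by all 3 of its probe sets. Of all probe sets 64.2% were called in this comparison, and 51.7% of those calls were higher.

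RH17 was lower in leaves than in roots of the same age. Young leaf minus young root was -0.66 ± 0.14 (adjusted p = 4.38e-05), and -0.22 after quantile normalization (adjusted p = 0.11). Mature leaf minus mature root was -0.82 ± 0.14 (adjusted p = 1.30e-06), and -0.66 after quantile normalization (adjusted p = 1.26e-05), while the median of all tested probe sets was -0.35, and -0.18 after that normalization. Mature root exceeded young root by 0.31 ± 0.14 (adjusted p = 0.0397), a call lost in 10 of 18 fits with an array left out, with no level filter (adjusted p = 0.0694), once the model held the spike-in signal (adjusted p = 0.227) or the 3' index (adjusted p = 0.0570) and with the replicate block (adjusted p = 0.0645). Of the 14 neighbouring pairs of groups in order of level, 13 overlapped.

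Among genotypes, this probe set of RH17 was called in young leaf only. It read 7.14, 7.27 and 7.13 in the hybrid, against 7.20, 5.67 and 6.77 in the R parent and 6.86, 7.03 and 6.50 in the B parent. The hybrid arrays were close together and overlapped those of the R parent, of which replicate 2 was far below the rest. The hybrid exceeded the R parent by 0.64 ± 0.24 (adjusted p = 0.0227), but by 0.20 without that replicate (adjusted p = 0.470), and the B parent by 0.39 ± 0.24 with no call (adjusted p = 0.209). Hybrid minus mid-parent was 0.51 ± 0.20 (adjusted p = 0.0373). It lost its call in 5 of 9 fits with an array left out, the smallest value being 0.29 without replicate 2 of the R parent, and it was 0.17 after quantile normalization (adjusted p = 0.54). The call was also lost with array weights (adjusted p = 0.0501), the spike-in covariate (adjusted p = 0.188), the replicate block (adjusted p = 0.0641) and young leaf alone (adjusted p = 0.241). Hybrid minus R parent was lost after quantile normalization (0.16, adjusted p = 0.585), with young leaf alone (adjusted p = 0.194) and once the model held the spike-in signal (adjusted p = 0.215). R minus B passed at no stage, with values between -0.25 and 0.28. Its other probe sets had group means between 2.53 and 5.04, all under 5 but 1. That is the x_at probe set in mature root of the R parent, where hybrid minus R parent was fitted at -1.63 (adjusted p = 5.47e-05) and R minus B at 1.82 (adjusted p = 4.66e-06), with bounds of -0.04 and 0.04 when the low means are set to 5.

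The short RH2-named gene LOC4324018 differed most between groups, with an SD of 1.93 over the 15 group means. It was high in young and mature leaves, at 8.14 to 9.76, and at 4.11 to 6.52 in flag leaves and roots. No array of a young or mature leaf fell below 7.79 and no other array exceeded 7.16. Within the leaves, young leaf of the B parent stood above all other groups, and young leaf of the hybrid above mature leaf of the R parent. In order of level 11 of 14 neighbouring pairs of groups overlapped.

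Young leaf of LOC4324018 read 8.85, 8.96 and 9.18 in the hybrid, 8.33, 8.27 and 9.34 in the R parent and 9.80, 9.98 and 9.51 in the B parent. Young root read 4.67, 3.50 and 5.09 in the hybrid, 6.19, 5.98 and 6.03 in the R parent and 5.67, 5.01 and 5.79 in the B parent. Young leaf minus young root was 3.81 ± 0.26 (adjusted p = 2.90e-15), and mature leaf minus mature root was 3.26 ± 0.26 (adjusted p = 1.32e-13). Flag leaf minus mature leaf was -3.15 ± 0.26 (adjusted p = 1.03e-12), opposite to RH10 and RH17. Some root and flag leaf means lay under 5, and with those set to 5 the 3 values become bounds of 3.62, 2.96 and -2.89. Mature leaf minus young leaf was -0.74 ± 0.26 (adjusted p = 0.0140), and -1.14 from the hybrid and the B parent alone (adjusted p = 0.000257).

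**Figure D4:**
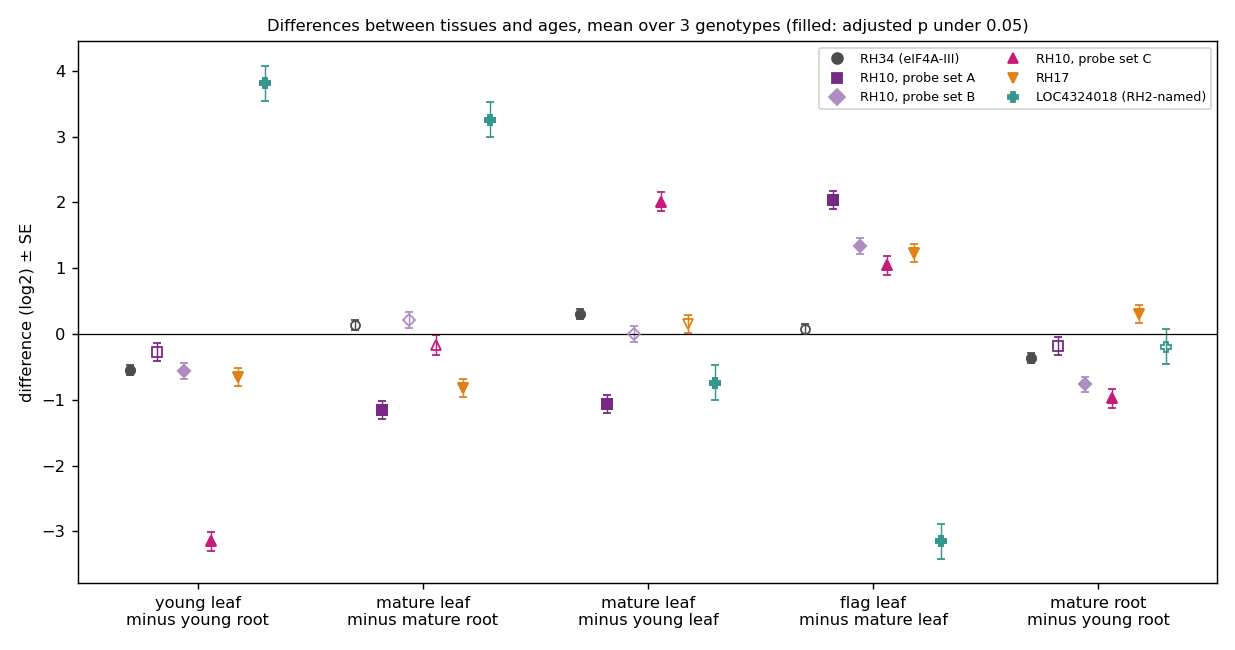
Differences in log2 intensity ± SE (y axis) between organs and ages (x axis), averaged over the 3 genotypes, for the 4 genes and the other RH10 probe sets. Filled symbols have an adjusted p under 0.05. LOC4324018 is higher in leaf than in root by 3.81 and 3.26 and at -3.15 in flag leaf minus mature leaf, and RH10 differs in sign between its probe sets in mature leaf minus young leaf.

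In flag leaf LOC4324018 was higher in the hybrid than in both parents. It read 6.18, 7.16 and 6.22 in the hybrid, against 4.02, 5.07 and 4.47 in the R parent and 3.83, 5.20 and 5.03 in the B parent. Every hybrid array lay above every parent array, and both parent means were under 5. With the low means set to 5 the hybrid exceeded each parent by at least 1.52. The fitted differences were 2.00 ± 0.46 against the R parent (adjusted p = 0.00259) and 1.83 ± 0.46 against the B parent (adjusted p = 0.00645). Without replicate 1 of the B parent the second was 1.40, with an adjusted p of 0.0695, and in a fit of flag leaf alone its adjusted p was 0.0558. Hybrid minus mid-parent was 1.91 ± 0.40 (adjusted p = 0.00118) and was called with each array left out.

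In mature root the sign was opposite. LOC4324018 read 3.67, 4.77 and 3.91 in the hybrid, against 4.0, 6.35 and 6.66 in the R parent and 5.77, 5.30 and 5.81 in the B parent. The hybrid lay below the B parent, and 1 array of the R parent fell within the hybrid range. The fitted differences were -1.55 ± 0.46 against the R parent (adjusted p = 0.00675) and -1.51 ± 0.46 against the B parent (adjusted p = 0.00966). With the hybrid mean, which is under 5, set to 5, these become bounds of -0.67 and -0.63, each difference being at least that far below 0. Of all probe sets 1.63% lay below both parents in mature root and 3.39% above both. The call against the B parent was lost without replicate 1 of the hybrid (adjusted p = 0.0556) and in a fit of mature root alone (adjusted p = 0.118). The call against the R parent was lost without its replicate 2 or 3 (up to adjusted p = 0.0907), when the model held the spike-in signal (-0.94, adjusted p = 0.21), when it held the 3' index (-1.21, adjusted p = 0.29) and in a fit of mature root alone (adjusted p = 0.0977). Hybrid minus mid-parent, -1.53 ± 0.40, was lost with the spike-in signal (-1.10, adjusted p = 0.0908) and with mature root alone (adjusted p = 0.101). With means under 5 set to 5, hybrid minus mid-parent is bounded at -0.65 in mature root, -0.78 in young root and 1.52 in flag leaf.

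In young root hybrid minus mid-parent for LOC4324018 was -1.36 ± 0.40 (adjusted p = 0.0121), and without replicate 2 of the hybrid it was -0.90 (adjusted p = 0.198), and hybrid minus R parent was -1.19 (adjusted p = 0.100). Hybrid minus R parent was -1.65 ± 0.46 (adjusted p = 0.00789), with a bound of -1.07 when the hybrid mean, under 5, is set to 5. Hybrid minus B parent was -1.07 ± 0.46 (adjusted p = 0.0849), and it was called with the R parent arrays that stood apart left out of the fit (adjusted p = 0.0237). That fit was chosen after seeing the data. The means were 4.42 in the hybrid, under 5, and 5.49 in the B parent, so background limits the size of this difference too. The hybrid had the highest leaf markers in young root and the lowest value of this gene, which was high in young leaf. Whether leaf tissue in the young root samples has a part in this result was not tested.

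**Figure D5:**
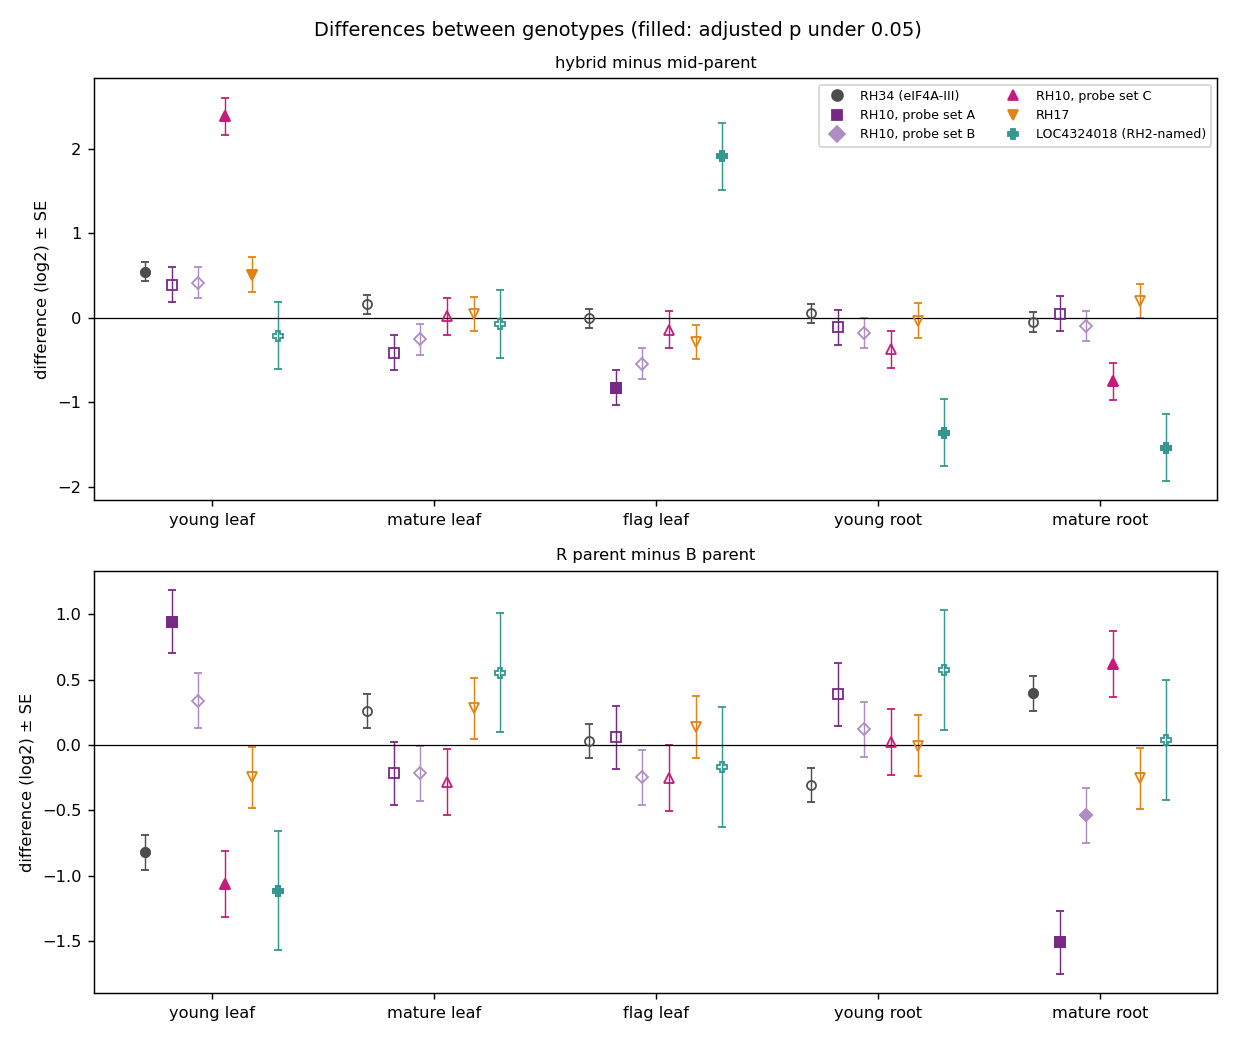
Differences in log2 intensity ± SE (y axis) at the 5 organs and stages (x axis), hybrid minus mid-parent above and R parent minus B parent below, for the 4 genes and the other RH10 probe sets. Filled symbols have an adjusted p under 0.05. In the upper panel LOC4324018 is at 1.91 in flag leaf and at -1.36 and -1.53 in roots, and RH10 by probe set C is at 2.39 in young leaf.

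The parents themselves differed in 3 of 4 genes in young leaf, where 46.3% of all probe sets were called, and in 2 of 4 in mature root, where 58.9% were. In young leaf R minus B was negative for RH34 and LOC4324018 and positive for RH10 by probe set A. For LOC4324018 it was -1.11 ± 0.46 (adjusted p = 0.0450), not called in 5 of 6 fits with an array left out (adjusted p up to 0.158), after quantile normalization (adjusted p = 0.0893), with no level filter (adjusted p = 0.0694) or with array weights (adjusted p = 0.0748), and -0.33 once the model held the spike-in signal (adjusted p = 0.74). In young root, mature leaf and flag leaf limma called 0 of 4, beside 28.6%, 15.2% and 12.7% of all probe sets. There 1, 0 and 0 of the 4 had an unadjusted p under 0.05, the one being RH34 at -0.31 ± 0.13 in young root (adjusted p = 0.0821).

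Genes that act in translation and splicing with DEAD-box proteins were counted by lists of names. Of 4 translation initiation factors, eIF4E (which binds the mRNA cap), eIF4G (the scaffold) and eIF3k were lower in young root of the hybrid than the mid-parent. Their values were -0.47 ± 0.15, -1.22 ± 0.28 and -0.33 ± 0.12 (adjusted p = 0.0248, 0.00130 and 0.0462). That is 0 higher and 3 lower of 4, beside 20.3% of all probe sets called, with a median of -0.40 beside -0.02 over all tested probe sets. The leaf markers were highest in these hybrid young roots (12.11, against 9.63 and 10.22 in the R and B parents), and 3 of the 4 factors were lower in young leaf than in young root. Their part in the result was not tested. In mature root eIF4G (-1.34 ± 0.28, adjusted p = 0.000467) and eIF4E (-0.80 ± 0.15, adjusted p = 0.000164) were lower again. In young leaf the count was 2 higher and 1 lower, the lower one being eIF4A-2, itself a DEAD-box helicase of the translation machinery, at -0.37 ± 0.12 (adjusted p = 0.0109). The 4 probe sets of eIF4G were not compared.

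Of 8 splicing factors tested, 5 were higher and 2 lower in young leaf of the hybrid than the mid-parent, beside 46.9% of all probe sets called. Their median was 0.73 beside 0.17 over all tested probe sets. The mid-parent holds the R parent arrays that stood apart, and in hybrid minus B parent, which does not, 4 were higher and 0 lower, with a median of 0.33 beside 0.09. U2AF65B and U2AF65A, large subunits of the factor that binds the 3' splice site, were higher by 0.82 ± 0.11 (adjusted p = 1.89e-07) and 0.76 ± 0.14 (adjusted p = 3.65e-05). The serine/arginine-rich factor RSZ23 was higher by 1.10 ± 0.15 (adjusted p = 5.09e-07), and RSZ21 was lower, at -0.56 ± 0.16 (adjusted p = 0.00541). The 3 probe sets of RSZ21 were not compared. The other stages had 0 higher and 1 lower in young root, 0 in mature leaf, 1 higher in mature root and 1 lower in flag leaf. In flag leaf minus mature leaf 5 of the 8 were higher and 0 lower, with a median of 0.41 beside 0.00, and 64.2% of all probe sets were called in that comparison. These lists were chosen with earlier results of these data known, and nothing particular to them is drawn from the counts.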

How the data were processed

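The deposited values are linear intensities of 57381 probe sets on 45 arrays, which the authors made with GCRMA, per the submitters' processing notes. GCRMA corrects background and summarises the probes of a set, and its version is not given in the sources used here. Of the arrays 0 pairs were identical, and 0 columns belonged to other samples. Values were taken to log2 with a floor of 1, and 0 values lay under it. The 123 control probe sets were left out. Probe sets with a mean of at least 5 in 1 or more groups (24130) entered 1 limma 3.58.1 fit of 15 group means in R 4.3.3, with 30 residual degrees of freedom and Benjamini-Hochberg adjustment within each contrast at 0.05. The code was tested on simulated data, and Python 3.11.15 with matplotlib 3.10.9 drew the plots. The number of arrays limits the precision, and the p-values measure the spread between samples that the labels call biological replicates.

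Genes were named through the array annotation and RefSeq (22436 probe sets with 1 gene, 95 with several, 34727 with none). A probe set counted for a gene only if paired with that gene alone. The members and the lists (exon junction, translation initiation, splicing, leaf and root markers) were chosen with earlier results of these data known. All members were named, with values of every array for those outside both parents, those called between the parents, and those with the highest or lowest difference per organ or age. Alternatives were array weights, quantile normalization, the fit with no level filter, the spike-in signal as a covariate, a replicate block, the compared stages alone, a linear mid-parent, other probe sets and each array left out. The 3' index covariate and the hybrid and B parent alone were chosen after seeing the data. Replicate numbers were not used to pair arrays across genotypes in the main fit. Same-numbered arrays correlated at -0.11 to 0.05 on average per stage in their deviations from the group means. Single pairs ran from -0.51 in young leaf to 0.42 in mature root. Averages over 9 pairs per stage cannot exclude a pairing.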

Additional observations from a re-analysis of the deposited data

Results flagged for a closer look

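The hybrid's difference from the mid-parent itself differed between stages, by interaction contrasts of the limma fit. For RH10 it was larger in young leaf than in mature leaf by 0.80 with probe set A, by 0.67 with B and by 2.37 with C, and larger in young leaf than in young root by 2.76 with C. Probe sets A and B were not called in the latter contrast, A at 0.50 and B between 0.40 and 0.80 with single arrays left out. For RH34 the hybrid's difference was larger in young leaf than in young root by 0.49. The medians of all tested probe sets were 0.24 against mature leaf and 0.26 against young root. All of these contrasts use the young leaf arrays of the R parent, which stood apart.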

How the results depend on the processing

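Of 39 called differences of the 4 genes, 32 kept their call and direction after quantile normalization, 36 with no level filter, 36 with array weights, 28 with the spike-in covariate, 37 with the replicate block, 32 with the 3' index covariate, 29 with the compared stages alone and 7 of 8 with a linear mid-parent. Of 19 differences computed from the hybrid and the B parent alone 18 did. Of 480 called values in fits with an array left out, 432 did. Of 30 called values set against another probe set of RH10 or RH17, 11 did, 13 lost the call and 6 turned sign. The causes were not tested.

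Called genes against the mid-parent in young leaf were 1 after quantile normalization, array weights, the replicate block or stages alone (RH34) and 1 with the spike-in covariate (RH10), instead of 2. In mature root they were 0 with the spike-in covariate or stages alone, instead of 1, and in flag leaf 1 with the 3' index covariate (LOC4324018), instead of 2. Between the parents, young leaf had 1 with the spike-in covariate, instead of 3, young root 1 (RH34) after quantile normalization or array weights, instead of 0, and mature root 1 after quantile normalization or the spike-in covariate and 0 with the 3' index covariate, instead of 2. Mature root minus young root had 1 with no filter, the replicate block or the 3' index covariate, instead of 2. Between young leaf and mature leaf, the change against the mid-parent had 0 with a linear mid-parent, quantile normalization, no filter or stages alone, instead of 1. Between young leaf and young root it had 0 after quantile normalization or stages alone and 2 with array weights, instead of 1. Outside both parents were 1 in young leaf with the spike-in covariate, instead of 0, and 1 in young root with array weights or the replicate block, instead of 0. In mature root there were 0 with the spike-in covariate, the 3' index covariate or stages alone, instead of 1, and in flag leaf 1 with the 3' index covariate or stages alone, instead of 2.

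With single arrays left out, counts against the mid-parent ran 1 to 2 in young leaf (lowest without replicate 2 or 3 of the hybrid, 3 of the B parent or 2 of the R parent), 0 to 1 in young root (0 without hybrid replicate 2) and 1 to 2 in flag leaf (1 without hybrid replicate 1). They ran 2 to 3 between the parents in young leaf and 0 to 1 in young root (1 without R parent replicate 1), 3 to 4 in leaf minus root at both ages and 1 to 2 in mature minus young root, where 10 of 18 arrays each ended a call. The changes between stages ran 0 to 2 (young and mature leaf) and 1 to 2 (young leaf and young root). Counts outside both parents ran 0 to 1 in young root (1 without hybrid replicate 3), 0 to 1 in mature root (0 without hybrid replicate 1 or R parent replicate 2 or 3) and 0 to 2 in flag leaf (changed without hybrid replicate 1, B parent replicate 1 or 3 or R parent replicate 2).

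Signs turned in these cases among values called under one of the settings compared, and some values called under neither also crossed 0. RH34 in mature minus young leaf was -0.026 from the hybrid and the B parent alone. RH10 in hybrid minus R parent in young leaf was 1.36 with the spike-in covariate and 2.92 by probe set C. By C it was also -1.06 in R minus B in young leaf, -1.06 in hybrid minus R parent, -0.75 in hybrid minus mid-parent and 0.62 in R minus B in mature root, and 2.01 in mature minus young leaf. By B it was 0.21 in mature leaf minus mature root. The RH17 probe set near background gave -1.63, -0.72 and 1.82 in the same mature root comparisons and -0.17 in flag minus mature leaf. The replicate block ended the calls of RH17 in young leaf against the mid-parent (0.51) and in mature minus young root (0.31), made that of LOC4324018 against the B parent in young root (-1.07), and changed no other call. Values near 5 and below are limited by signal over background.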
